A study of Mus musculus with 15 samples.

Results

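The genes of cholesterol synthesis and those of fatty acid and triglyceride synthesis were examined in mouse liver, in wild type animals, in MAT1A KO animals and in their tumors. They were chosen by name, as 32 genes of these pathways, 20 of the sterol branch and 12 of the fatty acid and triglyceride branch. Of these, 30 were measured by probe sets that the platform annotation pairs with a single gene symbol, 18 of the sterol and 12 of the fatty acid branch, out of 12393 genes measured in all. Acat2 and Insig1 were not analysed here. The 30 genes lay on 56 probe sets, 13 genes on 1 and 17 on several, which were averaged. All values are log2 signals as made by RMA, so that a difference of 1 is a doubling.

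RNA was measured on Affymetrix arrays in 15 liver samples of the C57B6SJL background, all taken at 15 months of age. There were 5 samples of healthy wild type liver, 5 of liver tissue next to tumors in MAT1A KO mice (called peritumoral) and 5 of tissue of MAT1A KO mice that histopathology had found to be hepatocellular carcinoma (called tumor). The knockout removes the enzyme that makes S-adenosylmethionine, the main methyl donor, in adult liver, and all tumor and peritumoral samples are labelled as carrying it, so that knockout and tumor cannot be told apart in a comparison of tumors with wild type liver. The tissue is whole liver, in which fewer cells of a type and less RNA in each cell cannot be told apart.

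Cholesterol is built from acetyl-CoA through mevalonate, isoprenoids, squalene and lanosterol, and the liver makes much of the cholesterol of the body. Its enzymes are switched on together by the transcription factor SREBP2 (gene Srebf2) when sterol in the endoplasmic reticulum is low. Fatty acids are built from acetyl-CoA through malonyl-CoA and joined to glycerol as triglyceride, and their enzymes answer mainly to SREBP1 (Srebf1) after insulin and to ChREBP (Mlxipl) after carbohydrate.

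Before the comparisons, the arrays themselves are described, because a few of them set most of the values below. The mean correlation of an array with the other 4 of its group, across genes, was between 0.950 and 0.984, apart from 0.938 for peritumoral replicate 2, 0.929 for tumor replicate 2 and 0.931 for tumor replicate 5. Wild type replicate 4 had the lowest value of its group, at 0.963. In that array the mean of 8 granulocyte markers was 9.86, against 4.82 to 5.31 in the other 4 of the group. Mat1a, the targeted gene, was between 12.25 and 12.72 in wild type liver, between 8.84 and 9.29 in 4 peritumoral arrays and at 11.44 in peritumoral replicate 2. In tumors it was at 8.72, 10.47, 8.63, 8.33 and 10.50 in replicates 1 to 5. The array labelled peritumoral 2 thus held more Mat1a signal than any other array labelled knockout, nearer to wild type liver than to the rest of its group, and tumors 2 and 5 were between. These values go against the label of peritumoral 2, which bears on every value given for it, and whether its probes lie inside the deletion is not given in the sources used here. The hepatocyte list, with 8 markers, had means between 12.66 and 13.55 in all arrays, with 13.55 and 13.53 in the peritumoral and the tumor array of number 2. The 3 adipocyte markers had means between 3.74 and 4.31 in all arrays, near the low end of the scale (the array medians were between 5.47 and 5.68). The 6 stellate and 5 bile duct markers had means of 7.14 and 6.16 in tumor 3, against 4.81 to 5.55 and 4.11 to 4.64 in all other arrays. The 7 macrophage markers had means of 6.86 to 8.84 in wild type liver, 7.31 to 8.80 in peritumoral tissue and 6.91 to 7.73 in tumors. The part of these cells in the results was not tested.

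The sterol genes varied together from array to array, and the variation did not follow the 3 groups. The range over 15 arrays had a median of 3.10 among the 18 sterol genes and of 2.02 among the 12 fatty acid genes, beside 0.98 over all 12393 genes. Of the sterol genes, 9 had a range among the top 5% of all genes, and of the fatty acid genes 3. With the 2 arrays of number 2, peritumoral and tumor, set aside, the median range was 1.57 for the sterol genes, 1.94 for the fatty acid genes and 0.84 for all genes, and the number of genes in the top 5% was 0 and 4. The widest range among the members belonged to Idi1, the isomerase that makes the second isoprenoid building block. Idi1, like Hmgcs1, Fasn, Me1 and Thrsp, was chosen after its values were seen. Its signal was 10.001, 10.76, 10.70, 10.66 and 10.51 in wild type replicates 1 to 5, 11.49, 4.74, 10.01, 10.61 and 9.34 in peritumoral replicates 1 to 5, and 9.72, 4.08, 8.98, 10.07 and 10.78 in tumors 1 to 5. The arrays of number 2 stood far below all others, and the distance from 4.08 to 11.49 is 169.7-fold, the range of rank 12 among all genes.

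**Figure D1:**
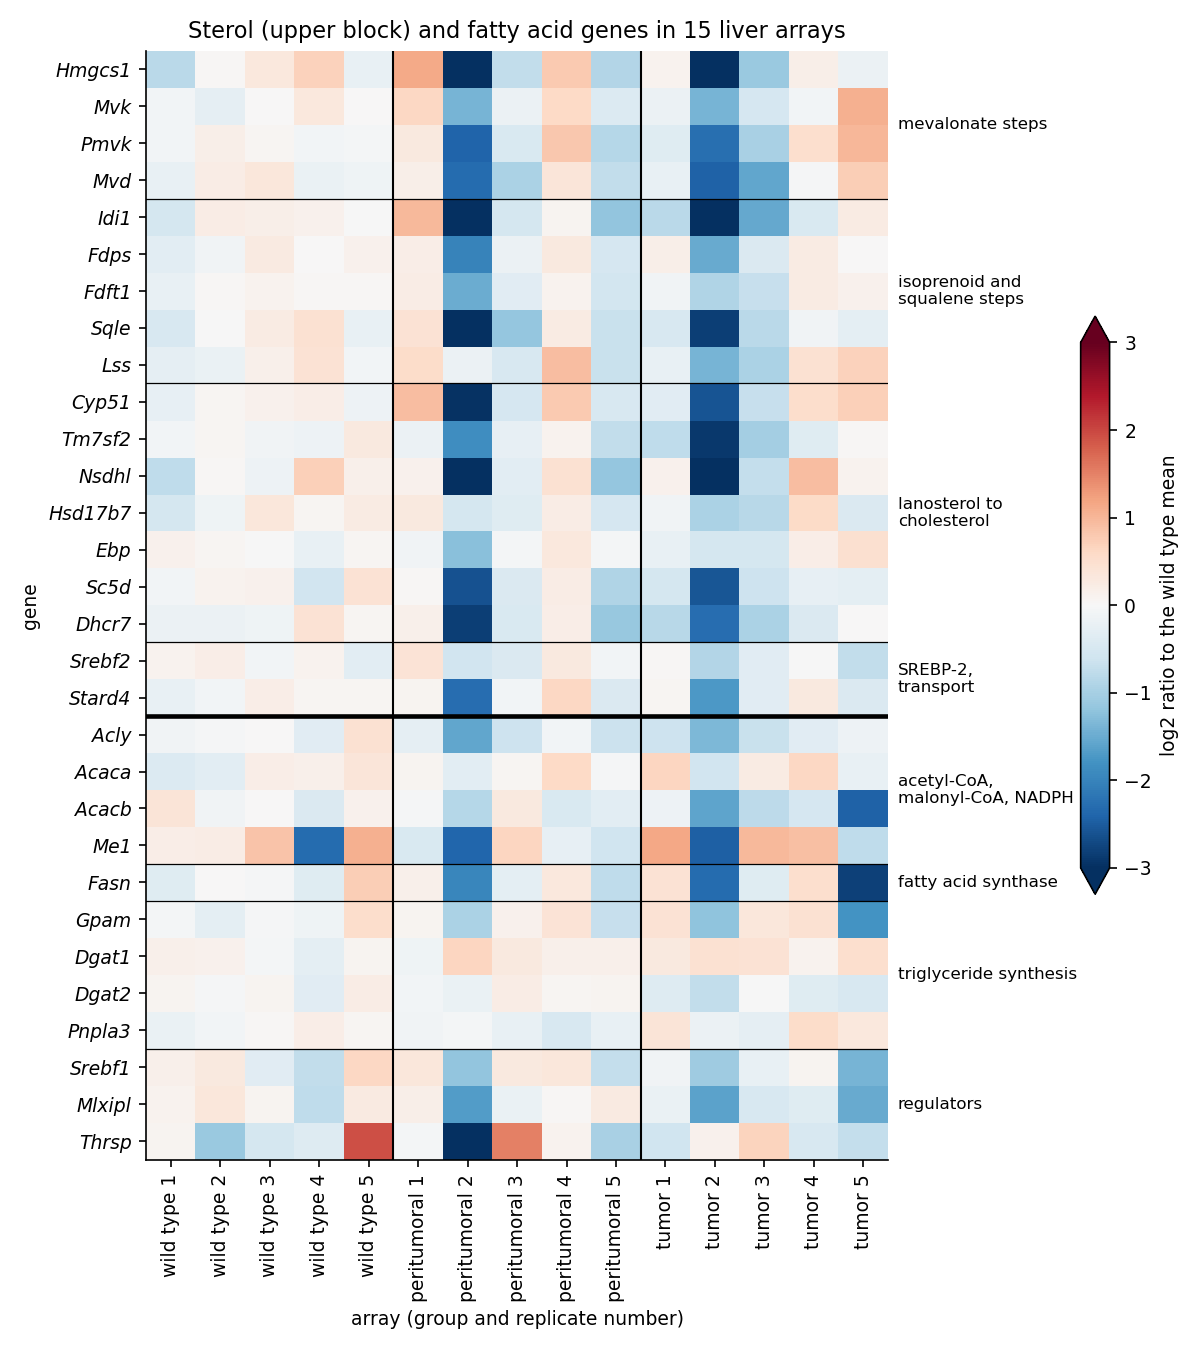
The heat map shows the log2 ratio of each of the 30 genes (rows, ordered by step of the pathway) to the mean of the 5 wild type arrays, in each of the 15 arrays (columns), with colours that stop at 3 in both directions. Peritumoral 2 and tumor 2 are blue through almost the whole sterol block, where their means are -2.27 and -2.26, while tumor 5 is at its bluest in the fatty acid block, where its mean is -0.96.

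The array labelled peritumoral 2 was below the mean of the other 4 peritumoral arrays in 18 of 18 sterol genes, by more than 1 in 15 of them, while 6.97% of all genes lay that far below. The median distance was -2.18, from -5.63 for Idi1 (49.5-fold) to -0.26 for Lss, the lanosterol synthase. Tumor replicate 2 was below the mean of the other 4 tumors in 18 of 18 sterol genes as well, by more than 1 in 14, while 6.57% of all genes did so, with a median of -1.94 and a lowest value of -5.80 for Idi1 (55.9-fold). In 14 of the 18 genes these 2 arrays were the lowest pair of the 15, and the 4 others were Lss, Hsd17b7, Ebp and Srebf2. Every sterol gene had its lowest value in one of them, 10 genes in the peritumoral and 8 in the tumor array. Hmgcs1, which makes HMG-CoA at the start of the mevalonate steps, was at 10.47, 11.32, 11.59, 11.96 and 11.07 in wild type liver, at 12.41, 7.44, 10.55, 12.07 and 10.39 in peritumoral tissue and at 11.39, 7.27, 10.17, 11.45 and 11.11 in tumors. Apart from number 2, the 3 groups overlapped.

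The promoters of 4 genes are printed to show the elements that lie before genes of the 2 branches, with Hmgcs1 and Idi1 for the widest ranges, Tm7sf2 and Acly as genes of the 2 branches whose comparisons are given below. Each sequence is the 250 bases before the gene's start, 5′ to 3′ on the strand of the gene, from RefSeq on GRCm38.p6, with matches in capitals. Searched on both strands were TCACNCCAC, a form of the sterol regulatory element that SREBPs bind, CACGTG, the E-box, CCAAT, which NF-Y binds, and GGGCGG, which Sp1 binds.
Hmgcs1 (chr13:119690101-119690350, plus strand): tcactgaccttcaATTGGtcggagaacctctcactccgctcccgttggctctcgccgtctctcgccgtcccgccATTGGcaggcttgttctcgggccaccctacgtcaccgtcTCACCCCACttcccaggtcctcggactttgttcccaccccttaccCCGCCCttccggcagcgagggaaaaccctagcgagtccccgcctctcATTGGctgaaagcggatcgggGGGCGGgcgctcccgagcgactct
Idi1 (chr13:8885356-8885605, plus strand): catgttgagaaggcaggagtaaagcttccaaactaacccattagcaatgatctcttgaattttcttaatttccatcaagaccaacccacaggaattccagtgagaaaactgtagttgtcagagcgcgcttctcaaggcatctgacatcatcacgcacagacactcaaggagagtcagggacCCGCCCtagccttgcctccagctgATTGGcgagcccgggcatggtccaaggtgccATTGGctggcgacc
Tm7sf2 (chr19:6067851-6068100, minus strand): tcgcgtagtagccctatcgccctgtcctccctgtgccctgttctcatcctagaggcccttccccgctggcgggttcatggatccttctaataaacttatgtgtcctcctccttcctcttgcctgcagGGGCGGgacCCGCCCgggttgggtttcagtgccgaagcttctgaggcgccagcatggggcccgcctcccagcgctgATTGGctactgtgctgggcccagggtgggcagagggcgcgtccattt
Acly (chr11:100528001-100528250, minus strand): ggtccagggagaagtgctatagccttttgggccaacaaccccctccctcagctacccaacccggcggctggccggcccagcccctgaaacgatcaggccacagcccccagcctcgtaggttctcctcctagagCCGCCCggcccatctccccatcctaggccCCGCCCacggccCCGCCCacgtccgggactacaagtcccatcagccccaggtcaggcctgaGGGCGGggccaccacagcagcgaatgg
In Hmgcs1 the element TCACCCCAC began 137 bases before the start, and the window also held 3 CCAAT matches and 2 of GGGCGG. Idi1 held 2 CCAAT matches and 1 of GGGCGG, Tm7sf2 held 1 and 2, and Acly held 4 of GGGCGG and none of CCAAT. No 2 matches overlapped in these 4 sequences.

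The promoter table held 14 of the 18 sterol genes, with 17 promoters, and 10 of the 12 fatty acid genes, with 15. Fdft1, Fdps, Sqle, Stard4, Dgat1 and Dgat2 had no entry. CCAAT was found before 14 of the 14 sterol genes and 8 of the 10 fatty acid genes, beside 37.5% of all genes of the table. Acly, printed above, and Acaca were those without it. By promoter it was in 14 of the 17 and 9 of the 15, where 33.8% of all 32851 promoters hold it in the same 250 bases. GGGCGG was found in 14 of the 17 sterol and 7 of the 15 fatty acid promoters, beside 32.7% of all. TCACNCCAC was found in 1 sterol promoter, that of Hmgcs1, and in 1 fatty acid promoter, of Mlxipl, beside 1.05% of all. CACGTG was found in 3 and 1, beside 6.02%. These are matches of letters in a short window and not binding sites.

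The sterol genes not given array by array are described here by their ranges, in the order of the pathway. Mvk and Pmvk, the kinases of mevalonate, were at 7.47 to 8.06 and 8.64 to 8.90 in wild type liver. In the peritumoral and the tumor array of number 2, Mvk was at 6.34 in both and Pmvk at 6.31 and 6.47, and in the other 8 arrays labelled knockout they were at 7.23 to 8.81 and 7.76 to 9.72. These 8 arrays thus reached further in both directions than wild type liver, and number 2 lay below all of them. Fdps, which makes farnesyl diphosphate, was at 7.27 to 7.86 in wild type liver, at 5.59 and 6.08 in number 2 and at 7.09 to 7.88 in the others labelled knockout. Fdft1, the squalene synthase, was at 7.69 to 8.02, at 6.42 and 7.02 and at 7.21 to 8.15 in the same order. Sqle, the squalene epoxidase, was at 9.60 to 10.56, at 6.85 and 7.27 and at 8.94 to 10.53. The 3 genes between isoprenoids and lanosterol had number 2 at the bottom, with a smaller distance in Fdft1. Fdft1 is averaged with 2 probe sets of low signal (means of 4.97 and 4.85 over all arrays). Fdps is also averaged with a probe set of low signal (mean of 3.32).

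Among the enzymes after lanosterol, Cyp51, which removes its first methyl group, was at 7.31 to 7.74 in wild type liver, at 4.58 and 4.96 in number 2 and at 6.84 to 8.47 in the others labelled knockout. Nsdhl, the sterol dehydrogenase, was at 9.73 to 11.23, at 7.18 and 7.44 and at 9.35 to 11.43. Hsd17b7, the ketoreductase of the same step, was at 7.26 to 8.15, at 7.27 and 6.85 and at 6.98 to 8.37, so that peritumoral 2 was inside the range of wild type liver. Ebp, a sterol isomerase, was at 11.51 to 11.87, at 10.49 and 11.20 and at 11.20 to 12.21. Here too the distance was small. Stard4, a carrier that moves cholesterol between membranes, was at 8.60 to 9.02, at 6.54 and 7.11 and at 8.39 to 9.46. The differences of these 10 genes between tumors and wild type liver were between -0.90 for Sqle and -0.12 for Ebp, with adjusted p-values from 0.345 to 0.780.

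The fatty acid genes did not all follow the sterol genes. Their mean log2 ratio to wild type was -1.13 in peritumoral replicate 2 and -1.04 in tumor replicate 2, about as low as the -0.96 of tumor replicate 5, in which the sterol mean was 0.16. In the other 12 arrays the fatty acid mean lay between -0.48 and 0.54. Tumor replicate 5 was below the mean of the other 4 tumors in 9 of the 12 fatty acid genes and above it in 15 of the 18 sterol genes. Of all 12393 genes, 5522 were below and 6871 above it. That mean includes tumor 2, which lowers it in the sterol genes. Tumor 5 held the lowest value of all arrays in 4 fatty acid genes and the highest in 4 sterol genes. The difference between the sterol and the fatty acid mean was 1.11 in this array and between -1.22 and 0.61 in all others. Fasn, the fatty acid synthase, was at 9.60, 9.97, 9.93, 9.60 and 10.69 in wild type liver, at 10.11, 7.998, 9.67, 10.26 and 9.19 in peritumoral tissue and at 10.40, 7.66, 9.58, 10.47 and 7.15 in tumors. It was low in the arrays of number 2 and lowest in tumor 5.

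**Figure D2:**
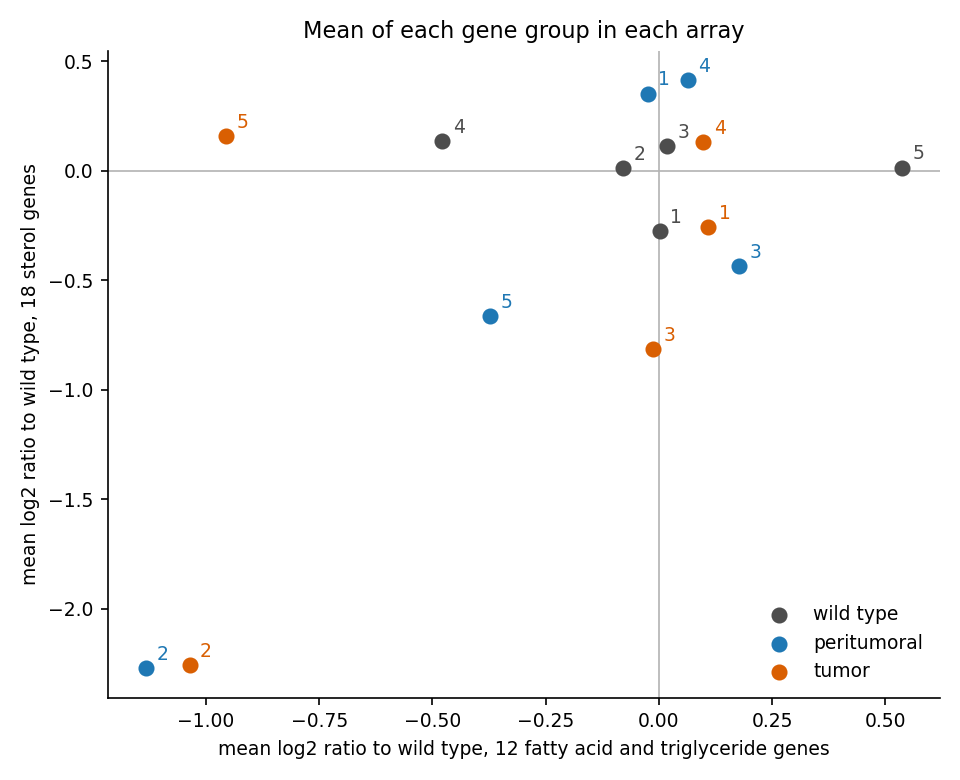
Each point is an array, with its replicate number, placed by the mean log2 ratio to wild type of the 12 fatty acid and triglyceride genes (x axis) and of the 18 sterol genes (y axis). Peritumoral 2 and tumor 2 lie at the lower left, tumor 5 lies to the left at a sterol mean of 0.16, and the remaining arrays lie between -0.81 and 0.41 on the y axis.

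Me1, the malic enzyme that supplies NADPH, was at 9.14, 9.16, 9.80, 6.64 and 10.01 in wild type liver, at 8.50, 6.56, 9.59, 8.71 and 8.35 in peritumoral tissue and at 10.12, 6.50, 9.93, 9.86 and 8.19 in tumors. It was low in wild type 4, the array with the granulocyte signal, and in the arrays of number 2. Thrsp, a lipogenic regulator also called Spot 14, was at 9.75, 8.57, 9.14, 9.29 and 11.61 in wild type liver, at 9.62, 6.62, 11.19, 9.78 and 8.70 in peritumoral tissue and at 9.08, 9.80, 10.33, 9.19 and 8.95 in tumors. Here the 2 arrays of number 2 parted, with the peritumoral one the lowest of all and the tumor inside the range of the others. Gpam, the acyltransferase that starts triglyceride synthesis, was at 9.29 to 10.11 in wild type liver, at 8.62 and 8.38 in number 2, at 7.79 in tumor 5 and at 8.88 to 10.04 in the other 7 arrays labelled knockout. Acaca, the carboxylase whose malonyl-CoA feeds fatty acid synthesis, was at 3.93 to 4.70 in wild type liver and at 3.78 to 4.98 in arrays labelled knockout, below all array medians.

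Tumors were then compared with wild type liver. In the mean all 18 sterol genes and 9 of the 12 fatty acid genes were lower in tumors, beside 58.95% of all genes. None of the 30 passed the test (limma on these 2 groups, adjusted over all genes, threshold 0.05), in which 0.565% of all genes passed, 70 in number. The median log2 difference was -0.45 for the sterol and -0.37 for the fatty acid genes, beside -0.05 for all genes. At an unadjusted p under 0.05 there were 6 of the 30 members, beside 17.4% of all genes, and in 0 members did all 5 tumors lie beyond all 5 wild type arrays, beside 5.07% of all genes. The mean difference of the sterol genes, -0.61, was -0.19 without tumor replicate 2, and that of the fatty acid genes, -0.36, was -0.19 without tumor 2, -0.21 without tumor 5 and -0.23 without wild type 5.

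The sterol genes with the smallest p in this comparison act late in the pathway, where lanosterol is turned into cholesterol. The 7 genes of these steps did not stand out as a set. Their mean difference was -0.60, beside -0.58 for the mevalonate steps and -0.71 for the isoprenoid and squalene steps. Tm7sf2, a sterol reductase that acts after Cyp51, was at 10.82, 10.96, 10.80, 10.76 and 11.20 in wild type liver, at 10.74, 9.05, 10.67, 11.02 and 10.17 in peritumoral tissue and at 10.14, 8.01, 9.88, 10.54 and 10.94 in tumors. Of the tumors, 4 lay below every wild type array, while tumor 5 was inside the wild type range. The difference from wild type was -1.01 (SE 0.46, adjusted p = 0.290). Dhcr7, which makes cholesterol in the last step, was at 9.70, 9.71, 9.74, 10.30 and 9.93 in wild type liver, at 10.04, 7.04, 9.43, 10.08 and 8.74 in peritumoral tissue and at 9.04, 7.59, 8.93, 9.45 and 9.89 in tumors, with a difference between tumors and wild type of -0.89 (SE 0.36, adjusted p = 0.243). Again 4 of the 5 tumors were below all wild type arrays. Sc5d, the sterol desaturase before it, was at 9.13, 9.30, 9.34, 8.63 and 9.63 in wild type liver, at 9.24, 6.59, 8.77, 9.42 and 8.30 in peritumoral tissue and at 8.68, 6.64, 8.58, 8.95 and 8.90 in tumors, a difference of -0.85 (SE 0.41, adjusted p = 0.317). The tumors overlapped wild type 4 alone.

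Among the fatty acid genes, Dgat1 and Acacb had the smallest p. Dgat1, one of the enzymes that add the last fatty acid to triglyceride, was at 7.69, 7.68, 7.48, 7.26 and 7.62 in wild type liver, at 7.42, 8.19, 7.84, 7.70 and 7.70 in peritumoral tissue and at 7.83, 8.01, 7.98, 7.65 and 8.04 in tumors. It was higher in tumors in the mean, by 0.36 (SE 0.12, adjusted p = 0.171), with tumor 4 alone among the wild type values. Acacb, the acetyl-CoA carboxylase whose malonyl-CoA restrains fatty acid oxidation, was at 7.83, 7.34, 7.44, 7.001 and 7.57 in wild type liver, at 7.40, 6.58, 7.73, 6.98 and 7.12 in peritumoral tissue and at 7.28, 5.86, 6.66, 6.93 and 5.01 in tumors, a difference of -1.09 (SE 0.39, adjusted p = 0.196). All tumors but number 1 were below the wild type values, and tumors 2 and 5 were far below. Acly, which cleaves citrate to acetyl-CoA for both branches, was at 7.20, 7.27, 7.31, 6.96 and 7.76 in wild type liver, at 7.03, 5.74, 6.68, 7.21 and 6.66 in peritumoral tissue and at 6.67, 5.95, 6.64, 6.96 and 7.14 in tumors. Its difference was -0.63 between tumors and wild type (SE 0.22, adjusted p = 0.199), and it is damped by 2 of its probe sets, whose means of 2.99 and 3.28 over all arrays are near the floor.

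**Figure D3:**
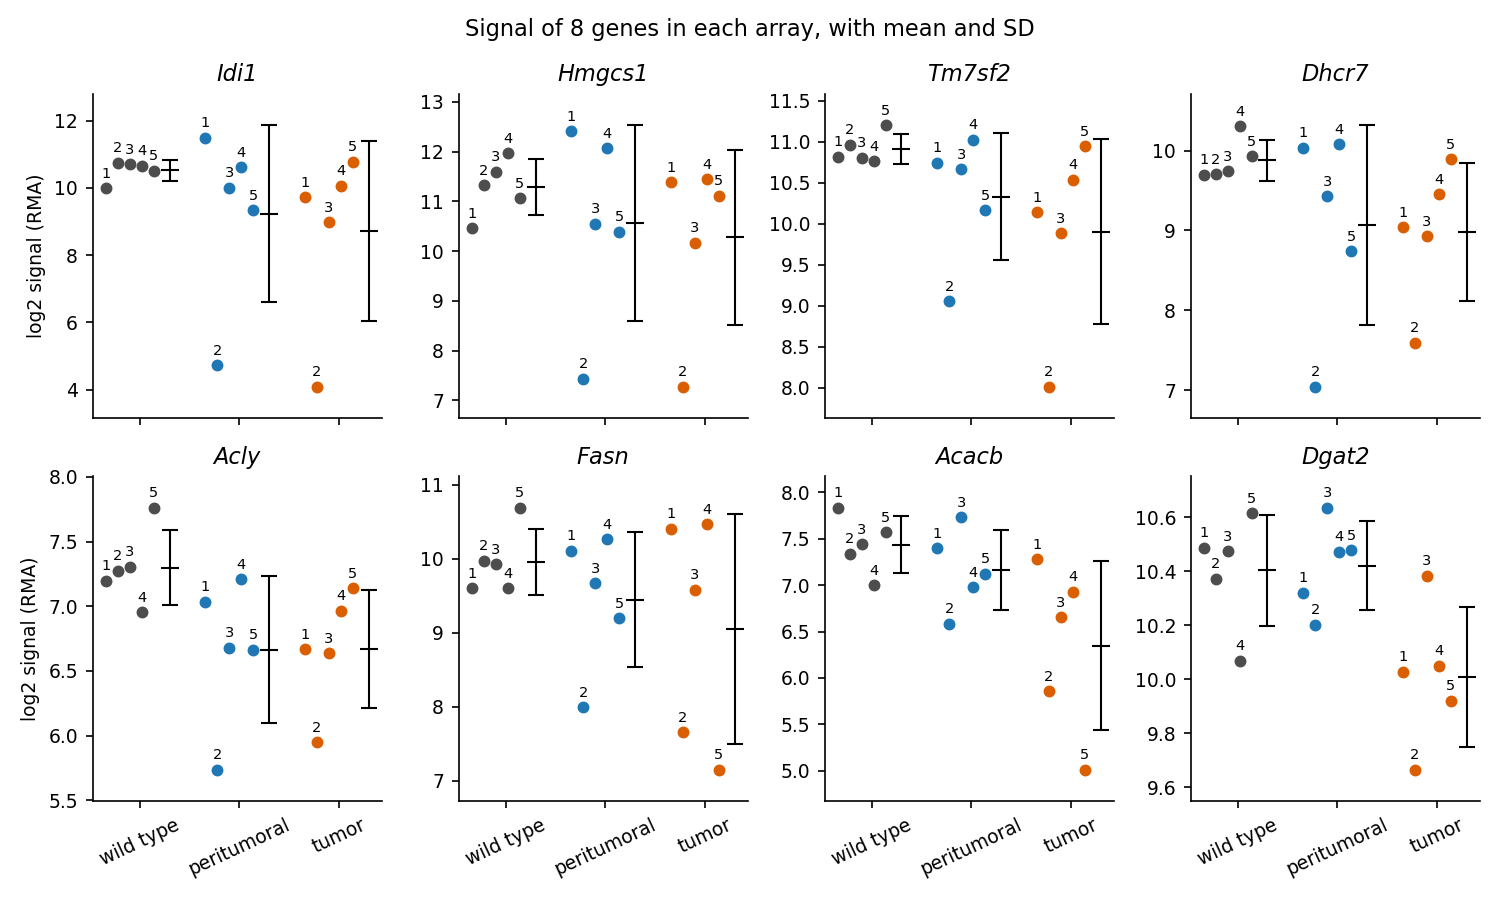
Log2 signal of 8 genes in each array (points, with replicate numbers), with the mean and SD of the 5 arrays of each group beside them. In Idi1, Hmgcs1, Tm7sf2, Dhcr7 and Acly the lowest points are the arrays of number 2, in Fasn and Acacb the lowest is tumor 5, and in Dgat2 the tumors lie between 9.67 and 10.38.

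The arrays that stand apart were also left out, with wild type 4 and tumor 2 removed in one fit and tumor 5 as well in another. Without wild type 4 and tumor 2, 0 members passed, beside 4.59% of all genes. The sterol median was -0.10, beside -0.07 for all genes, with 12 of 18 sterol genes lower. Without tumor 5 as well, 5 members passed and were lower in tumors, beside 11.5% of all genes. These were Tm7sf2 (-0.76, adjusted p = 0.0296), Dhcr7 (-0.63, adjusted p = 0.0287), Sc5d (-0.61, adjusted p = 0.0344), Acly (-0.63, adjusted p = 0.0404) and Mlxipl (-0.55, adjusted p = 0.0216). In that fit 16 of the 18 sterol genes and 6 of the 12 fatty acid genes were lower in tumors. Their medians were -0.175 and -0.064, beside -0.087 for all genes. With limma's array weights 2 members passed, Acly and Dgat2, beside 14.8% of all genes. Read against these shares, 5 of 30 members is somewhat above and 2 of 30 below the share of all genes. The counts are small and many members vary together, so neither is read as a result about the members. The arrays left out were picked from these same data, and they are among those that overlapped in genes that then passed. Tumor 5 lay inside the wild type range in Tm7sf2 and Dhcr7, and wild type 4 lay among the tumors in Sc5d and Mlxipl. The adjusted p-values without them are therefore no independent support for a difference.

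The regulators were compared in the same way. Srebf2, the gene of SREBP2, was at 7.35, 7.46, 7.18, 7.35 and 6.93 in wild type liver, at 7.67, 6.69, 6.83, 7.55 and 7.18 in peritumoral tissue and at 7.30, 6.37, 6.92, 7.24 and 6.52 in tumors, a difference between tumors and wild type of -0.38 (SE 0.19, adjusted p = 0.336). Srebf1 was at 10.14, 10.28, 9.63, 9.25 and 10.61 in wild type liver, at 10.33, 8.79, 10.28, 10.31 and 9.26 in peritumoral tissue and at 9.87, 8.92, 9.75, 10.06 and 8.59 in tumors (-0.54, SE 0.34, adjusted p = 0.423). Both were low in tumors 2 and 5 and in peritumoral 2, and their groups overlapped. Mlxipl was at 8.79, 9.03, 8.77, 7.92 and 8.95 in wild type liver, at 8.87, 7.03, 8.49, 8.73 and 8.95 in peritumoral tissue and at 8.49, 7.09, 8.21, 8.32 and 7.17 in tumors (-0.84, SE 0.32, adjusted p = 0.233). Every tumor was below 4 of the wild type arrays, and wild type 4 lay among them.

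Peritumoral tissue was compared with the same wild type arrays, so that both comparisons share these controls. In the mean, 17 of the 18 sterol genes and 9 of the 12 fatty acid genes were lower than in wild type liver, beside 61.1% of all genes. The medians were -0.49 and -0.25, beside -0.06 for all genes. None of the 30 passed in the limma fit, where 0.0403% of all genes did, 5 in number. At an unadjusted p under 0.05 stood 1 member, Acly, beside 15.1% of all genes, and groups did not overlap in 0 members, beside 3.2% of all genes. The sterol mean of -0.52 was -0.08 without peritumoral 2, the array whose Mat1a signal goes against its label, and the fatty acid mean of -0.26 was -0.04 without it and -0.12 without wild type 5. With wild type 4 and peritumoral 2 left out together, 0 members passed, beside 7.73% of all genes, and the sterol median was -0.06, beside -0.07 for all genes.

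Acly differed by -0.63 between peritumoral and wild type liver (SE 0.26, adjusted p = 0.294). Tm7sf2 and Dhcr7 were again among the sterol genes with the smallest p, at -0.58 (SE 0.32, adjusted p = 0.404) and -0.81 (SE 0.51, adjusted p = 0.446). Mvd, the decarboxylase that ends the mevalonate steps, was at 7.40, 7.85, 7.98, 7.44 and 7.50 in wild type liver, at 7.81, 5.33, 6.69, 7.997 and 6.89 in peritumoral tissue and at 7.42, 5.21, 6.08, 7.60 and 8.37 in tumors, with a peritumoral difference of -0.69 (SE 0.43, adjusted p = 0.448). Its peritumoral arrays lay on both sides of wild type. Pnpla3, a lipid droplet protein, was at 4.96, 5.08, 5.19, 5.35 and 5.22 in wild type liver, at 5.05, 5.09, 4.94, 4.69 and 4.93 in peritumoral tissue and at 5.56, 4.99, 4.90, 5.71 and 5.47 in tumors. This signal lies near the array medians, and the peritumoral difference was -0.22 (SE 0.10, adjusted p = 0.339). The difference of Dgat1 was 0.22 (SE 0.14, adjusted p = 0.453), with peritumoral 2 the highest of its group.

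**Figure D4:**
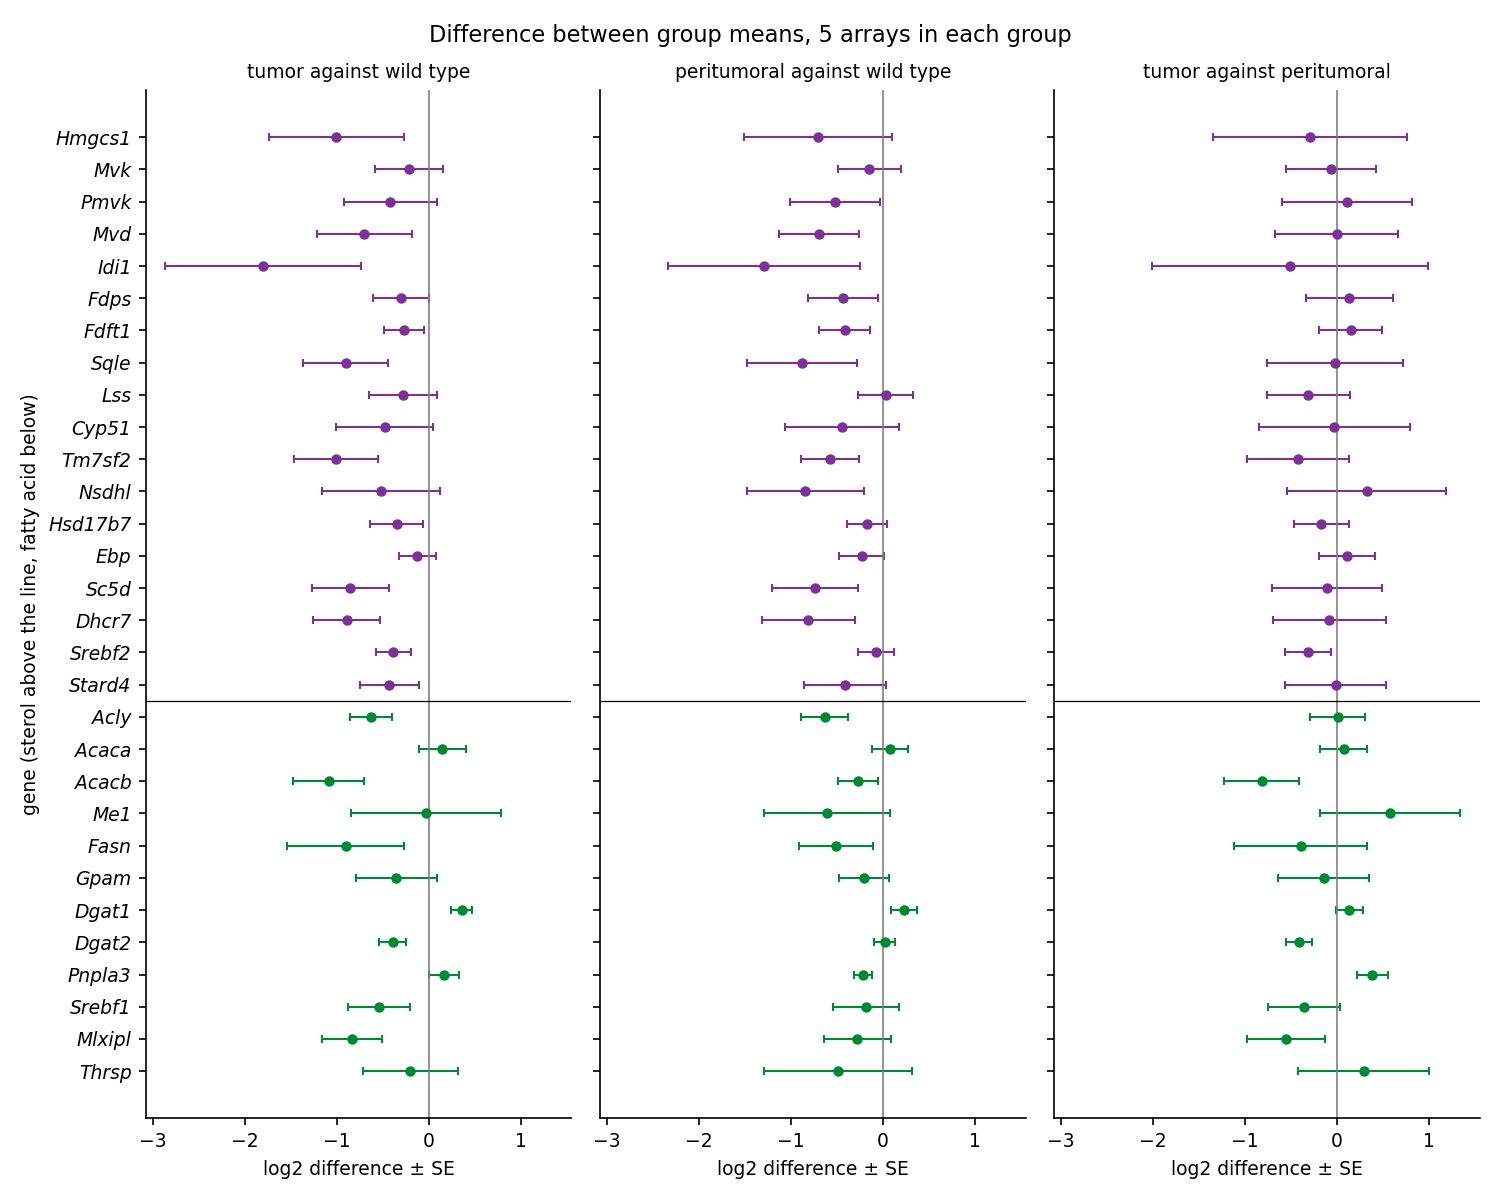
Log2 difference between group means (points) with its standard error from limma (bars) for the 30 genes in the 3 comparisons, with sterol genes above the line and fatty acid genes below it. All 18 sterol points lie left of 0 for tumors against wild type liver and 17 for peritumoral tissue, with the widest bars for Idi1, and none of the 30 genes passed in any of the 3 panels.

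Tumors were finally compared with peritumoral tissue, both labelled as knockout. The medians were -0.05 for the sterol genes, with 13 of 18 lower in tumors, and -0.07 for the fatty acid genes, with 6 of 12 lower, beside 0.02 for all genes. Of all genes, 45.98% were lower in tumors. In this limma fit 0 members passed, beside 0.0161% of all genes, 2 in number. There were 2 members at an unadjusted p under 0.05, beside 9.28% of all genes, and 0 without overlap, beside 2.33%. The means, -0.09 and -0.10, moved in both directions with single arrays left out, to -0.52 and -0.32 without peritumoral 2 and to 0.33 and 0.07 without tumor 2. The sterol mean was 0.13 without peritumoral 1 and 0.15 without peritumoral 4, and the fatty acid mean 0.05 without tumor 5 and 0.01 without peritumoral 3.

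Dgat2, the other enzyme of the last step of triglyceride synthesis, had the smallest p. Its signal was 10.49, 10.37, 10.48, 10.07 and 10.62 in wild type liver, 10.32, 10.20, 10.64, 10.47 and 10.48 in peritumoral tissue and 10.03, 9.67, 10.38, 10.05 and 9.92 in tumors. Tumors were lower by 0.41 in the mean (-0.41, SE 0.14, adjusted p = 0.403), and 4 of the 5 lay below all peritumoral arrays. Pnpla3 was higher in tumors by 0.38 (SE 0.17, adjusted p = 0.535), and with array weights it passed (0.57, adjusted p = 0.0417), as the 1 member called there, beside 5.43% of all genes. The difference of Acacb was -0.82 (SE 0.41, adjusted p = 0.595). Among the sterol genes Srebf2, Tm7sf2 and Lss had the smallest p, at -0.31, -0.43 and -0.31 with adjusted p-values of 0.763, 0.873 and 0.893. Lss was at 6.35, 6.42, 6.78, 7.06 and 6.54 in wild type liver, at 7.17, 6.45, 6.14, 7.56 and 5.97 in peritumoral tissue and at 6.41, 5.25, 5.69, 7.08 and 7.31 in tumors, so that the groups covered one another. Its 3 probe sets disagreed, with differences between tumors and peritumoral tissue of -0.12, 0.28 and -1.09 and between peritumoral and wild type liver of -0.32, -0.18 and 0.59, so that the averaged values, among them the 1 sterol difference above 0 in peritumoral tissue, rest on the probe set given last.

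Tumor and peritumoral arrays carry the same numbers, so the difference within each number is described as well. The arrays of a number resembled each other clearly in number 2 (r = 0.673 across genes) and weakly in number 5 (r = 0.117). Tumor 4 resembled peritumoral 1 most, so that equal numbers need not be pairs. The fits above do not use the numbers. Of the 18 sterol genes, 17, 8, 16, 15 and 2 were lower in the tumor than in the peritumoral array in numbers 1 to 5. Of all 12393 genes, 5905, 6063, 7380, 6022 and 5287 were lower in the same order. The mean sterol difference within a number was -0.61, 0.02, -0.38, -0.28 and 0.82. Numbers 1, 3 and 4 thus had lower sterol signals in the tumor, number 2 had both arrays at the bottom, and number 5 went the other way. The fatty acid genes were lower in the tumor in 6, 8, 8, 7 and 8 of the 12 genes, with mean differences of 0.13, 0.10, -0.19, 0.03 and -0.58. Acacb and Dgat2 were the genes lower in the tumor in all 5 numbers, and no sterol gene was.

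**Figure D5:**
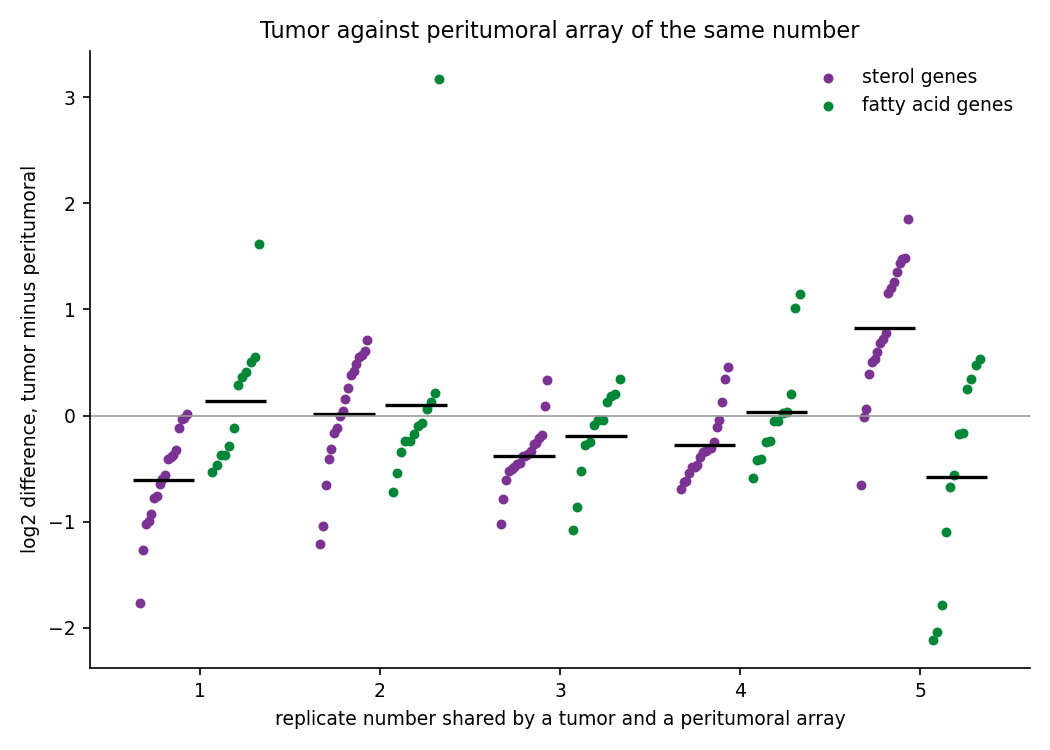
Each point is the log2 difference of one gene between the tumor and the peritumoral array that carry the same number (x axis), for the sterol and the fatty acid genes, and black lines are means. The sterol means are -0.61, -0.38 and -0.28 in numbers 1, 3 and 4 and 0.82 in number 5, where the fatty acid mean is -0.58.

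Other genes of sterol sensing and transport held the 1 gene that passed among the 3 further lists of lipid genes. Scap, which escorts the SREBPs from the endoplasmic reticulum to the place where they are cut, fell in tumors. Its signal was 9.72, 9.56, 9.40, 9.45 and 9.42 in wild type liver, 9.20, 9.29, 9.44, 9.41 and 8.94 in peritumoral tissue and 8.91, 8.30, 8.85, 8.91 and 8.30 in tumors. All 5 tumors were below all 10 other arrays, with a difference from wild type of -0.86 (SE 0.15, adjusted p = 0.0468) and from peritumoral tissue of -0.60 (SE 0.17, adjusted p = 0.267). The call was lost in 9 of the alternative fits, among them those without wild type 1, 2, 3 or 5 or without tumor 1 or 4, where the adjusted p was up to 0.149. Of the 8 genes of this list 1 passed, beside 0.565% of all genes. Eif2s3y, a gene of the Y chromosome that was chosen after its values were seen, passed in the same comparison (-2.73, adjusted p = 0.0468). It was at 7.75 to 8.32 in wild type liver, at 7.46 to 8.30 in peritumoral tissue and at 4.56, 5.66, 7.04, 4.62 and 4.02 in tumors, so that it too was lower in all tumors than in all other arrays. Of the 4 sex-linked genes measured, the others were chosen likewise. Uty and Kdm5d, also of the Y chromosome, had low signals and were lower in all tumors than in wild type liver (-0.563 and -0.455, adjusted p = 0.0578 and 0.1275). Xist had means of 3.65 in wild type liver, 3.43 in peritumoral tissue and 3.50 in tumors. The part of these genes in the value of Scap was not tested. In the list of Scap, Stard3, a sterol carrier of late endosomes, differed by 0.31 (SE 0.14, adjusted p = 0.301). Npc1, the lysosomal cholesterol exporter, was higher by 0.57 in peritumoral than in wild type liver (SE 0.16, adjusted p = 0.202).

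Msmo1, the sterol oxidase of lanosterol demethylation, chosen after its values were seen, was not among the members and followed them, at 8.53 and 8.60 in the arrays of number 2 and between 10.82 and 12.39 in the other 13. Lpin1, a phosphatidate phosphatase of triglyceride synthesis that was chosen likewise, ran the other way, at 10.93 and 10.95 in the arrays of number 2 and between 5.72 and 9.10 in the others. Elovl6, an elongase of the fatty acid branch and also chosen likewise, was at 4.54 and 4.41 there and between 7.29 and 9.04 in the others. Of 12 other fatty acid genes none passed in any of the 3 comparisons in limma, beside 0.565%, 0.0403% and 0.0161% of all genes. At an unadjusted p under 0.05 stood 1 of their 36 values, beside 17.4%, 15.1% and 9.28% of all genes in the 3 comparisons, and it was that of Agpat3 in peritumoral tissue (0.29, SE 0.08, adjusted p = 0.201). Pparg and Acss2 had the smallest p for tumors against wild type, at 0.80 and -0.81 with adjusted p-values of 0.303 and 0.357, and Pklr and Gpat4 for tumors against peritumoral tissue, at 0.56 and -0.16 with adjusted p-values of 0.785 and 0.799.

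Genes that the oxysterol receptor LXR is known to induce were the third list. In peritumoral tissue the means of all 5 measured were above those of wild type liver, as were those of 4821 of all 12393 genes. At an unadjusted p under 0.05 stood 4 of the 5, beside 15.1% of all genes, and 2 did not overlap, beside 3.2%. None passed in limma, beside 0.0403% of all genes. Peritumoral 2, whose Mat1a signal goes against its label, was the highest of its group in Abca1, Abcg5 and Mylip, and not in Abcg1. In Abcg8, chosen after its values were seen, this array was the highest as well, at 9.25 against 7.70 to 8.66. Abca1, a cholesterol exporter, was at 7.68, 8.19, 8.37, 8.26 and 8.48 in wild type liver, at 8.72, 9.57, 8.76, 9.55 and 9.25 in peritumoral tissue and at 8.29, 8.46, 8.56, 8.40 and 7.04 in tumors. Every peritumoral array was above every wild type array and above every tumor, with differences from wild type of 0.97 (SE 0.21, adjusted p = 0.113) and of tumors from peritumoral tissue of -1.02 (SE 0.31, adjusted p = 0.330). In the latter comparison 6 of the 7 macrophage markers were lower in the mean in tumors, beside 45.98% of all genes. At an unadjusted p under 0.05, 4 of them were lower, beside 9.28% of all genes in either direction. Of those, 3 chosen after their values were seen are given. Cd163 differed by -2.32, Clec4f by -1.31 and Csf1r by -0.88, with adjusted p-values of 0.162, 0.301 and 0.504. Cd68, chosen likewise, went the other way and was higher in tumors by 0.88 (adjusted p = 0.661). The part of these markers in the value of Abca1 was not tested. Abcg5, which moves sterol into bile, was at 8.02, 8.47, 7.49, 8.39 and 8.70 in wild type liver, at 9.03, 9.79, 9.12, 9.58 and 8.84 in peritumoral tissue and at 8.42, 10.74, 8.41, 8.81 and 9.83 in tumors. The peritumoral arrays again did not overlap with wild type (1.06, SE 0.25, adjusted p = 0.146), while the tumors did (1.03, SE 0.45, adjusted p = 0.271). Abcg1 differed by 0.41 in tumors from wild type (adjusted p = 0.389) and Mylip by -0.73 in tumors from peritumoral tissue (adjusted p = 0.649).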

How the data were processed

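Liver RNA of 15 mice samples was hybridized to Affymetrix arrays, and the deposited log2 values were made by the authors with GCOS 1.4 and RMA, which corrects background, quantile-normalizes the arrays and sums up the probes of a set. The paper names 2 types of mouse array, and the probe sets here are the 22690 of the smaller one. The version of RMA and a genome build are not given in the sources used here. A table of the authors' log2 ratios of knockout to wild type, which are their own comparison, was not used.

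Of the probe sets, 20393 are paired with 1 gene symbol. Those with several (691) or none (1606) and the 64 controls were left out, and the remaining 20380 were averaged into 12393 genes. All 30 member symbols matched RefSeq. The 2 groups of 5 arrays in a comparison were fitted in limma 3.58.1 (R 4.3.3, lmFit and eBayes), two-sided, with Benjamini-Hochberg adjustment over all genes. SE is that of this fit. The procedure was run on simulated data with independent normal values. These held no arrays that stand apart and no pairs, so the run does not cover such arrays. P-values set a difference between means against the spread between these samples, which the main fits take as independent. Precision is limited by the 5 arrays in a group.

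The members and lists were chosen with earlier results of these data known. Values in every array are given for members that pass, for the 3 of each branch with the smallest p in each comparison, for members whose groups do not overlap and for Srebf1, Srebf2 and Mlxipl. Of the other lists of lipid genes, those named are among the 2 genes with the smallest p in a comparison. Other genes are marked as chosen after their values were seen.

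Tumor and peritumoral arrays share replicate numbers. Group means were subtracted. Arrays of 1 number then correlated across genes with r of 0.353, 0.673, 0.271, 0.308 and 0.117 for numbers 1 to 5. All were above 0.1, the threshold set for pairing, but tumor 4 correlated most with peritumoral 1. Those with wild type of the same number were between -0.223 and 0.207, a span that holds the 0.117. The pairing was thus read from the data, is unsure and rests on no label. The main fits do not use it. With a replicate block, tumors against peritumoral tissue had 4 members and 1646 of all 12393 genes at an unadjusted p under 0.05, with 0 members called. The fits were repeated with only the brightest probe set of a gene, without probe sets ending in _s_at or _x_at, 3 groups in 1 fit, a replicate block, other scalings, the 40% of genes with the lowest mean left out, a trend, array weights, and arrays left out.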

Additional observations from a re-analysis of the deposited data

Results flagged for a closer look

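In each group of 5 arrays, a lowest or highest array was singled out where its gap to the next array exceeded 0.71 of the group's range. Of 90 pairs of a member and a group 8 met this, where chance gives about 4.5 (1 in 20). In tumor replicate 2, Idi1 was at 4.08 (the other tumors between 8.98 and 10.78), Sqle, the squalene epoxidase, at 7.27 (9.28 to 9.99) and Sc5d at 6.64 (8.58 to 8.95). In peritumoral replicate 2, Ebp, a sterol isomerase, was at 10.49 (11.63 to 12.04) and Mlxipl at 7.03 (8.49 to 8.95). In wild type replicate 4, Me1 was at 6.64 (9.14 to 10.01) and Mlxipl at 7.92 (8.77 to 9.03), and in wild type replicate 1 Fdft1, the squalene synthase, was at 7.69 (7.94 to 8.02). Outside the members, Mat1a was at 11.44 in peritumoral replicate 2, where the other peritumoral arrays lay between 8.84 and 9.29.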

How the results depend on the processing

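The calls of members depended on how single arrays were weighed. For tumors against wild type liver, the 0 members called became 2 with array weights (Acly, adjusted p = 0.0438, and Dgat2, 0.0276) and 5 without wild type 4, tumor 2 and tumor 5, and for tumors against peritumoral tissue 1 with array weights. All other alternatives gave 0 in the 3 comparisons, among them the replicate block, with 0 members called in each and 10, 0 and 1 of all genes. Without each array in turn the members called stayed at 0 to 0. In these fits the sterol mean was between -0.799 and -0.195 (tumors against wild type), -0.755 and -0.084 (peritumoral against wild type) and -0.524 and 0.326 (tumors against peritumoral), and the fatty acid mean between -0.479 and -0.191, -0.377 and -0.039, and -0.321 and 0.067. No called value changed sign, and of uncalled members 12, 13 and 21 changed sign in at least 1 alternative in the 3 comparisons.

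Counts over all genes moved more. The 70 genes of tumors against wild type became 287 with 3 groups in 1 fit, 44 with a trend, 1838 with array weights and 569 or 1431 without 2 or 3 arrays, and between 10 and 319 without single arrays. The 5 of peritumoral against wild type became 11 with the highest probe set, 12 with 3 groups, 1082 with array weights and 958 without 2 arrays, and between 4 and 267 without single arrays. The 2 of tumors against peritumoral became 4 with the highest probe set, 41 with 3 groups, 1 without the genes of lowest mean, 673 with array weights and 40 or 132 without 2 or 3 arrays, and between 0 and 36 without single arrays. Scap was lost with the highest probe set (adjusted p = 0.0515), the block (0.150) and the trend (0.0677). Probe sets of low signal, as in Fdps, Fdft1 and Acly, damp the averaged differences, and levels of different genes were not compared.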
